A study of Mus musculus with 6 samples.

Results

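The 44 genes described here are interferon-stimulated effector genes, a set of mouse genes whose transcripts are known to accumulate when cells respond to interferon and whose products act on viral RNA, viral entry, protein tagging and cell survival. They were chosen by gene symbol, from a list of names, with earlier results of these data known. All 44 were found among the 55401 genes of the deposited table, and all 44 had at least 0.5 FPKM (fragments scaled for transcript length and library depth) in at least 3 of the 6 libraries. They are thus 44 of the 12084 genes tested.

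The libraries came from mouse bone-marrow-derived macrophages, phagocytes grown from the marrow of the tibia and femur for 7 days in medium holding L929 cell supernatant, a usual source of the macrophage growth factor. The L-OHP+FUC group (n = 3) was given fucoidan, a sulfated polysaccharide from seaweed, at a concentration of 250 µg/ml for 12 h and then 5 µM L-OHP for 12 h. The L-OHP group (n = 3) was given 5 µM L-OHP for 12 h without fucoidan. L-OHP is the usual abbreviation of oxaliplatin, a platinum chemotherapy drug. Every cell therefore met the drug, and neither untreated cells nor cells given fucoidan alone were analysed here. The strain, sex and age of the mice, and whether the replicates were separate cultures or animals, are not given in the labels, so each p-value reflects the scatter of these libraries alone, and that scatter may be technical.

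Cells that sense foreign or displaced nucleic acid make type I interferon, which binds the receptor chains Ifnar1 and Ifnar2 and activates the kinases Jak1 and Tyk2. These act through Stat2, which works with Irf9 in a complex that binds the interferon-stimulated response element (ISRE) in promoters. Macrophages both make and answer interferon, and keep a low tone of this response without infection.

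The ISRE is the sequence feature that ties many of these genes to that complex, so the stretches that carry its core are shown for 7 members, 5 that fell with fucoidan and 2 that did not pass the test. Capitals mark the core searched for, the letters GAAA followed by any pair of bases and GAAA again, on either strand, so that it may also read as TTTC, any pair of bases and TTTC. Overlapping matches are merged. The stretches come from RefSeq promoters of GRCm38.p6, read 5′ to 3′ on the strand of the gene.
Ifit1 (chr19:34640773-34640825, plus strand): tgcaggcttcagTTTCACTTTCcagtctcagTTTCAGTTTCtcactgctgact
Ifit3 (chr19:34583361-34583428, plus strand): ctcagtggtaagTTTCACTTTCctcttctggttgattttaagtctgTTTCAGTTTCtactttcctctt
Ddx60 (chr8:61928022-61928089, plus strand): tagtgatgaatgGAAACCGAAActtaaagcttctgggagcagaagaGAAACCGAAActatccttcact
Bst2 (chr8:71537575-71537614, minus strand): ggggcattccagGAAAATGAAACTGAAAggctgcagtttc
Parp11 (chr6:127446784-127446817, plus strand): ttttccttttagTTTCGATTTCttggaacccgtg
Isg15 (chr4:156200863-156200908, minus strand): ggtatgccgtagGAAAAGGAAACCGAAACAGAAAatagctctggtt
Oas1a (chr5:120907518-120907557, minus strand): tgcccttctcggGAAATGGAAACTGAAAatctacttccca
The stretch of Ifit3 is letter for letter the same as that of its neighbour Ifit3b, and the stretch of Oas1a is the same as that of Oas1g. Of the 44 members, 35 had a RefSeq promoter window, running from 250 bases before to 50 bases after the start. The core was found in 14 of these 35 (40.0%), against 3.99% of the 27025 genes with a window and 4.11% of 8468 tested ones. It was found in 8 of the 19 members that fell and had a window (42.1%) and in 6 of the 16 that did not pass the test (37.5%). The letters TTCNNNGAA are the core of the gamma-activated sequence (GAS). They were found in 7 of the 35 (20.0%), against 9.55% of all genes with a window and 8.34% of the tested ones. Matches of both kinds overlapped in 3 members, Bst2, Ifitm3 and Parp11. A match is a description of the letters, not a binding site. Oas2, Usp18, Mx1, Mx2, Rtp4, Parp9, Parp10, Parp14 and Ifi27 had no entry.

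Macrophages given fucoidan before the drug carried less mRNA of 24 of these 44 genes. Those 24 were lower in L-OHP+FUC and 1, Ifi27, was higher at a limma adjusted p under 0.05, while 19 did not pass. Over all tested genes, 19.3% were lower and 7.67% were higher by the same rule, against 54.5% and 2.27% of the members. Because the members were chosen with earlier results of these data known, these shares are a description, not a test. The lower members numbered 8 (18.2%) without L-OHP+FUC 1, beside 7.59% of all tested genes. They numbered 8 (18.2%) without L-OHP+FUC 2, beside 6.91%, and 10 (22.7%) without L-OHP 1, beside 8.52%. Without L-OHP 3 they numbered 32 (72.7%), beside 13.0%. With the replicate number added as a block, 14 (31.8%) were lower, beside 14.6%. With that block and a correction for GC content and length, 5 (11.4%) were lower, beside 6.62%. The median log2 fold change of the members (L-OHP+FUC over L-OHP, on the scale of log2(FPKM + 1)) was -0.68, with a range of -1.45 to 0.69, beside a median of -0.10 over all tested genes. In 27 of the 44 (61.4%) every L-OHP+FUC library was below every L-OHP library, as in 30.9% of all tested genes. In the authors' deposited table, 24 members (54.5%) were lower at a q-value under 0.05, as were 12.9% of the tested genes, and 23 of those 24 were also lower by limma. The exceptions were Isg20, past only in the authors' deposited table at q = 0.0310, and Epsti1, past only by limma and at q = 0.0537 in the authors' deposited table.

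**Figure D1:**
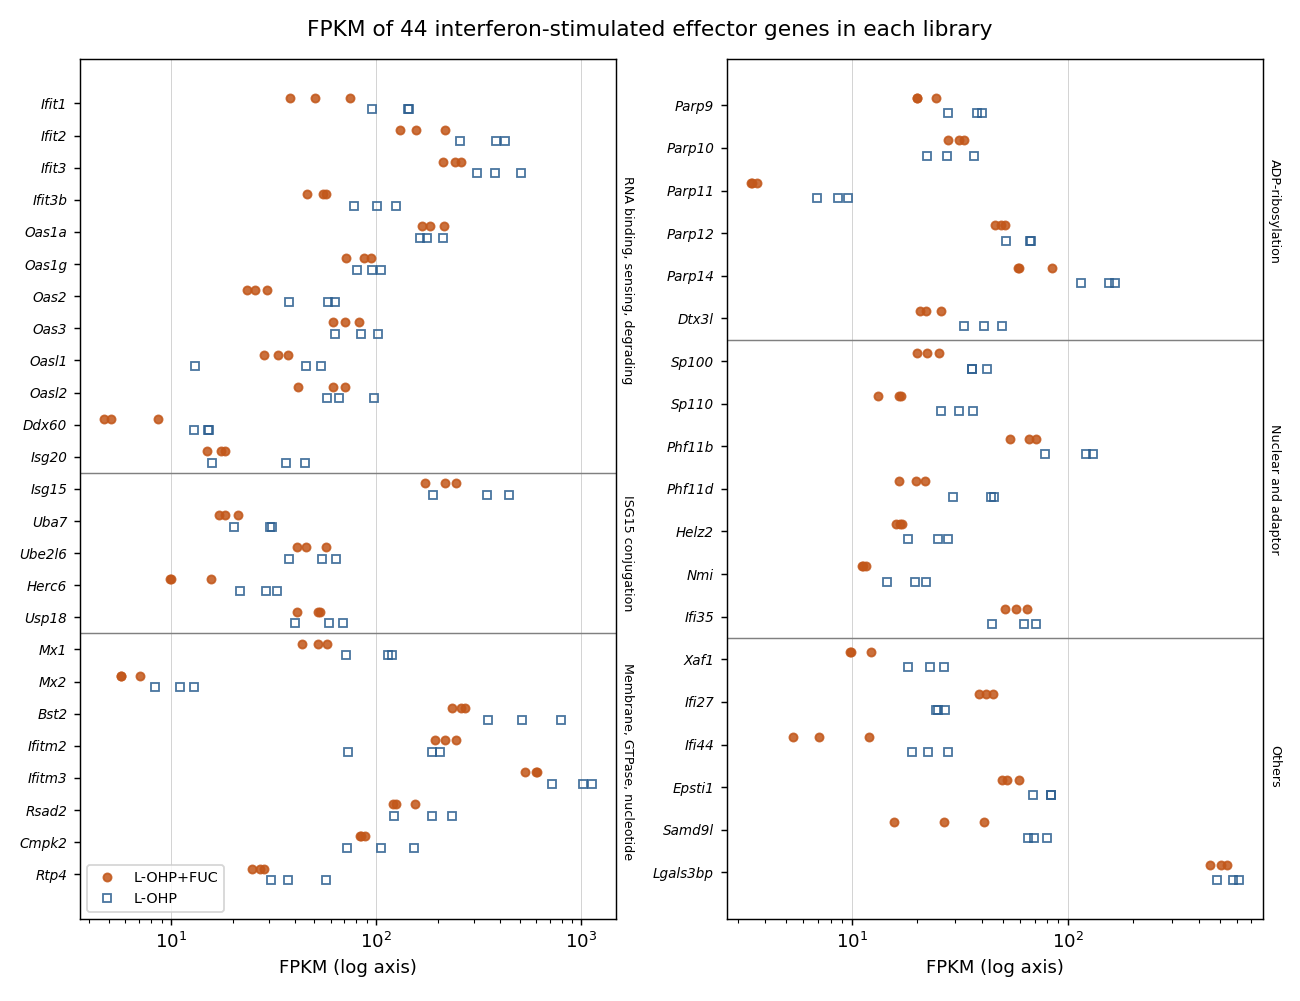
FPKM (log axis) of each of the 44 members in the 3 L-OHP+FUC libraries (filled circles) and the 3 L-OHP libraries (open squares), grouped by role. In 27 members every circle lies left of every square, and Ifi27 shows the opposite order.

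**Figure D2:**
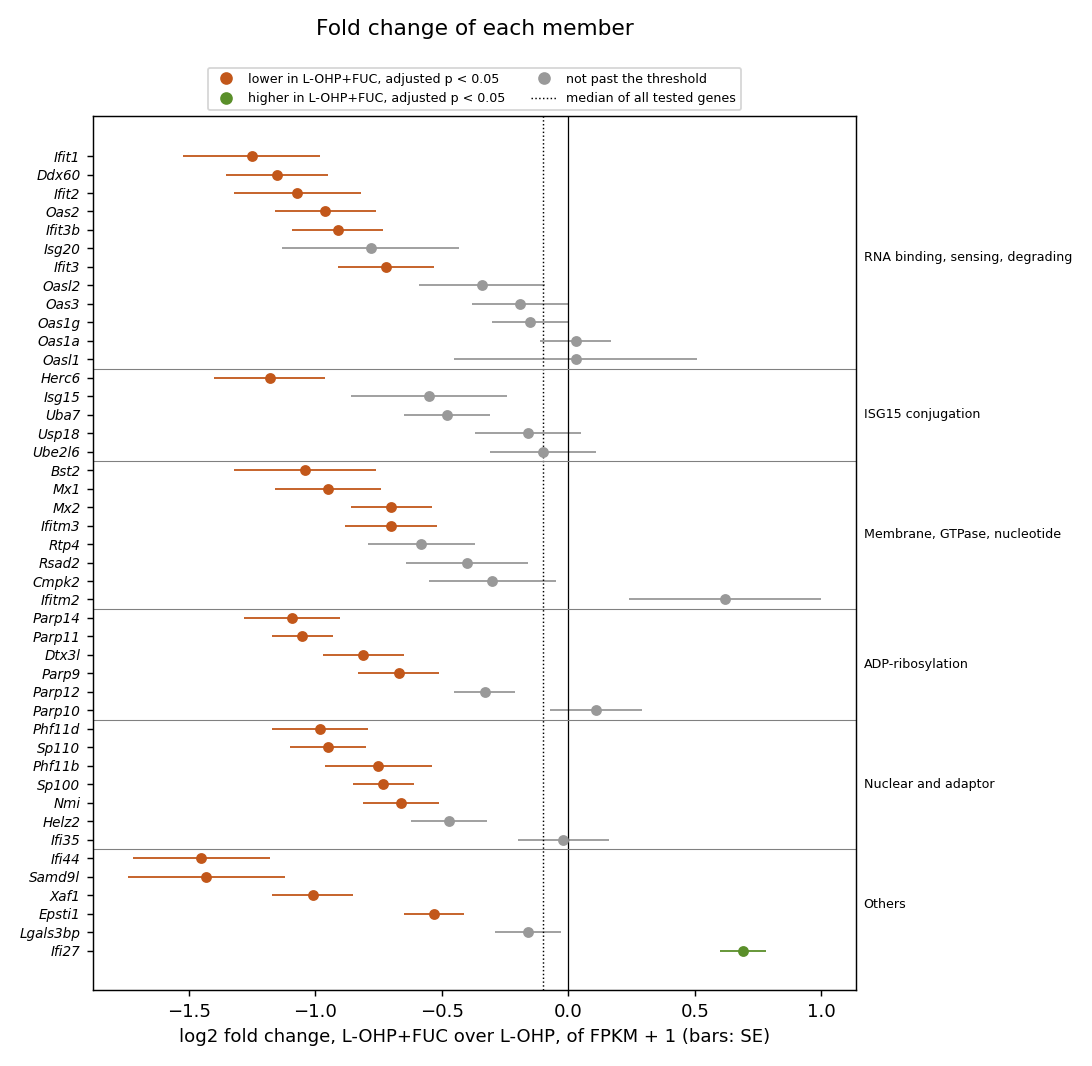
log2 fold change (L-OHP+FUC over L-OHP, of FPKM + 1) of each member with its standard error, grouped by role and ordered by size. The 24 members lower at an adjusted p under 0.05 are orange, Ifi27 is green, the 19 others are grey, and the dotted line is the median of all tested genes at -0.10.

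The samples carried the markers of macrophages. The summed level of 7 macrophage markers was 13270.1 to 14261 FPKM in L-OHP+FUC and 12338 to 17805 FPKM in L-OHP libraries. Most of that sum was Lyz2, at 10591 to 11655 FPKM in L-OHP+FUC and 10005 to 15185 FPKM in L-OHP libraries. Of the 7 markers, 3 passed the test. The growth factor receptor Csf1r was higher in L-OHP+FUC (log2 fold change 0.47, adjusted p = 0.0233, and up to 0.0854 with 1 library left out). The receptor for dying cells Mertk was lower (-0.74, adjusted p = 0.00432, and up to 0.0268), as was the Fc receptor Fcgr1 (-0.69, adjusted p = 0.0268, and up to 0.0932). The other 4, Adgre1 (-0.26), Itgam (-0.26), Lyz2 (-0.22) and Cd68 (0.18), did not pass, and of these only Adgre1 had groups that did not overlap. Plasmacytoid dendritic cells are a strong source of interferon, and their 5 markers summed to 13.0 to 14.8 FPKM in L-OHP+FUC and 9.19 to 12.6 FPKM in L-OHP libraries, with 3 of the 5 under 0.5 FPKM everywhere. Their defining marker Siglech was at 0 in every library but L-OHP 3, at 0.0180 FPKM. Neutrophil markers, 8 in all, summed to 5.70 to 6.56 FPKM in L-OHP+FUC and 3.79 to 4.26 FPKM in L-OHP libraries, with Ly6g at 0 and S100a8 higher in L-OHP+FUC (adjusted p = 0.0162, and up to 0.0651 with 1 library left out). Fibroblast markers summed to at most 9.68 FPKM, and T cell, NK cell, B cell, dendritic cell, mast cell and erythroid markers to under 1 FPKM in every library, with Cd3d, Cd3e, Cd3g and Flt3 at 0. The part of other cells in the results was not tested. In such bulk samples, fewer responding cells and less RNA per cell cannot be told apart.

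Values are given below in the order of replicates 1 to 3. Each count by role is to be read beside the 19.3% lower and 7.67% higher of all tested genes. The RNA-binding, RNA-sensing and RNA-degrading proteins form the largest role, with 12 members, of which 6 fell, 0 rose and 6 did not pass, at a median log2 fold change of -0.75. Those that fell were the 4 Ifit genes, Oas2 and Ddx60. Ifit proteins bind viral RNA and hinder its translation, and their genes lie together on chromosome 19 (chr19:34550694-34650009 for Ifit2 to Ifit1, mm10). Ifit1 had 38.0, 50.1 and 74.2 FPKM with L-OHP+FUC and 143, 144 and 95.0 FPKM with L-OHP (log2 fold change -1.25 with an SE of 0.27, adjusted p = 0.0190). The groups did not overlap, and L-OHP+FUC 3 was nearest to L-OHP 3. Ifit3b had 54.9, 46.1 and 56.9 FPKM with L-OHP+FUC and 125, 101 and 78.1 FPKM with L-OHP (log2 fold change -0.91 with an SE of 0.18, adjusted p = 0.0152). Its 3 L-OHP+FUC libraries lay within 1.23-fold of each other, and all were below L-OHP 3, the lowest of its group. Ifit2 averaged 168 ± 44.4 FPKM in L-OHP+FUC and 354 ± 87.8 FPKM in L-OHP libraries (SD, n = 3 each), at an adjusted p of 0.0232, and Ifit3 averaged 237 ± 23.8 FPKM in L-OHP+FUC and 399 ± 99.5 FPKM in L-OHP libraries, at an adjusted p of 0.0333. Ifit3 and Ifit3b share 51.2% of the 50-base words of the Ifit3 transcript, so the split of reads between them is uncertain. Ddx60, a helicase-like protein thought to promote RNA sensing, had 5.08, 4.73 and 8.61 FPKM with L-OHP+FUC and 15.1, 15.3 and 13.0 FPKM with L-OHP (log2 fold change -1.15 with an SE of 0.20, adjusted p = 0.0115). Its L-OHP libraries were close together, and the spread was larger among L-OHP+FUC libraries, where replicate 3 was the highest. Leaving out single libraries put the adjusted p over 0.05 without L-OHP+FUC 1 for Ifit1, Ifit2, Ifit3 and Ifit3b (0.0506 to 0.0929), without L-OHP+FUC 2 for Ifit1, Ifit2, Ifit3 and Ifit3b (0.0602 to 0.113), without L-OHP+FUC 3 for Ifit3 (0.0573), without L-OHP 1 for Ifit1, Ifit2 and Ifit3 (0.0639 to 0.0756) and without L-OHP 2 for Ifit3 (0.0519). Ddx60 passed whichever library was left out (adjusted p up to 0.0460), but not with the GC and length correction and the block (0.0748).

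The Oas proteins make oligoadenylates that switch on RNase L, and of the 6 Oas and Oasl members only Oas2 passed. Of all tested genes, 19.3% were lower. Oas2 had 25.7, 23.4 and 29.3 FPKM with L-OHP+FUC and 58.4, 62.8 and 37.5 FPKM with L-OHP (log2 fold change -0.96 with an SE of 0.20, adjusted p = 0.0174). All L-OHP+FUC libraries were below all L-OHP libraries. It missed the threshold without L-OHP+FUC 1 (adjusted p = 0.0625), L-OHP+FUC 2 (0.0661) or L-OHP 1 (0.0593). Oas1a, within 177 kb of Oas2 (chr5:120730333-120907521), averaged 188 ± 22.9 FPKM in L-OHP+FUC and 184 ± 24.3 FPKM in L-OHP libraries (SD, n = 3 each; adjusted p = 0.875), and Oas1g, which shares 57.6% of the words of Oas1a, averaged 84.1 ± 11.8 FPKM in L-OHP+FUC and 93.6 ± 12.5 FPKM in L-OHP libraries (adjusted p = 0.457). Oas3 averaged 71.7 ± 10.5 FPKM in L-OHP+FUC and 82.8 ± 19.5 FPKM in L-OHP libraries (adjusted p = 0.497). Oasl2, a relative with ubiquitin-like domains, averaged 57.8 ± 14.7 FPKM in L-OHP+FUC and 73.7 ± 21.2 FPKM in L-OHP libraries (adjusted p = 0.344). The groups overlapped for all 4, and whether they differ from Oas2 was not tested. Oasl1, which in mice is known to hold back translation of Irf7, had 28.5, 37.3 and 33.1 FPKM with L-OHP+FUC and 45.3, 54.1 and 13.1 FPKM with L-OHP (log2 fold change 0.03 with an SE of 0.48, adjusted p = 0.967). L-OHP 3 stood far below its group, and below all L-OHP+FUC libraries. Isg20, an exonuclease that degrades RNA, had 18.4, 15.0 and 17.6 FPKM with L-OHP+FUC and 36.5, 44.8 and 15.9 FPKM with L-OHP (log2 fold change -0.78 with an SE of 0.35, adjusted p = 0.140), with L-OHP 3 inside the range of L-OHP+FUC. Without L-OHP 3 the log2 fold change was -0.58 (adjusted p = 0.0443) for Oasl1 and -1.21 (adjusted p = 0.0105) for Isg20.

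The ISG15 system tags proteins with the ubiquitin-like Isg15. Of its 5 members, 1 fell, 0 rose and 4 did not pass, at a median log2 fold change of -0.48. By the same rule, 19.3% of all tested genes were lower. Herc6, the ligase of the pathway in mice, had 9.99, 9.85 and 15.7 FPKM with L-OHP+FUC and 29.1, 33.0 and 21.7 FPKM with L-OHP (log2 fold change -1.18 with an SE of 0.22, adjusted p = 0.0125). Its groups did not overlap, and it passed whichever library was left out. Isg15 itself had 245, 173 and 216 FPKM with L-OHP+FUC and 347, 443 and 189 FPKM with L-OHP (log2 fold change -0.55 with an SE of 0.31, adjusted p = 0.219). L-OHP 1 and 2 were above all other libraries, and L-OHP 3 was inside the range of L-OHP+FUC. Uba7, the activating enzyme, had 21.1, 17.2 and 18.4 FPKM with L-OHP+FUC and 30.4, 31.0 and 20.3 FPKM with L-OHP (log2 fold change -0.48 with an SE of 0.17, adjusted p = 0.0814), with L-OHP 1 and 2 again above all other libraries and L-OHP 3 below L-OHP+FUC 1. Usp18, which strips Isg15 from its targets and damps the interferon receptor, had 53.4, 41.2 and 52.2 FPKM with L-OHP+FUC and 59.0, 68.8 and 40.0 FPKM with L-OHP (log2 fold change -0.16 with an SE of 0.21, adjusted p = 0.589), and the conjugating enzyme Ube2l6 averaged 47.7 ± 8.0 FPKM in L-OHP+FUC and 51.8 ± 13.4 FPKM in L-OHP libraries (SD, n = 3 each; adjusted p = 0.759). Their groups overlapped. Without L-OHP 3, Isg15 passed at a log2 fold change of -0.90 (adjusted p = 0.0299) and Uba7 at -0.67 (adjusted p = 0.0199). Herc6 shares 23.8% of its words with an overlapping transcript on the same strand, Gm45193.

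Among the 8 membrane, entry, GTPase and nucleotide effectors, 4 fell, 0 rose and 4 did not pass, at a median log2 fold change of -0.64. The Mx GTPases bind viral nucleoproteins, and Mx1 is a restriction factor of influenza virus in mice. Mx1 had 51.8, 43.5 and 57.8 FPKM with L-OHP+FUC and 114, 119 and 71.2 FPKM with L-OHP (log2 fold change -0.95 with an SE of 0.21, adjusted p = 0.0212). Mx2, its neighbour on chromosome 16, which GENCODE classes as a polymorphic pseudogene, had 5.70, 5.70 and 7.07 FPKM with L-OHP+FUC and 13.0, 11.0 and 8.32 FPKM with L-OHP (log2 fold change -0.70 with an SE of 0.16, adjusted p = 0.0239). In both, L-OHP+FUC 3 was the highest of its group and below every L-OHP library. Bst2, also called tetherin, holds budding virions on the cell surface, and had 269.8, 235 and 259 FPKM with L-OHP+FUC and 514, 792 and 351 FPKM with L-OHP (log2 fold change -1.04 with an SE of 0.28, adjusted p = 0.0348). Its L-OHP libraries spread 2.26-fold, and all lay above the L-OHP+FUC libraries. Ifitm3, which blocks fusion of viruses in endosomes and had the highest mean level of the 44, had 609, 528 and 598 FPKM with L-OHP+FUC and 1018, 1122 and 718 FPKM with L-OHP (log2 fold change -0.70 with an SE of 0.18, adjusted p = 0.0336). The groups did not overlap. Ifitm2, its relative within the same 55.9 kb, had 245, 217 and 194 FPKM with L-OHP+FUC and 205, 72.6 and 188 FPKM with L-OHP (log2 fold change 0.62 with an SE of 0.38, adjusted p = 0.258). L-OHP 2 stood far below the other 5 libraries, and without it the log2 fold change was 0.15 (adjusted p = 0.393). Ifitm2 shares 36.1% of its words with Gm45717 on the same strand. Rsad2 (viperin, which makes a chain-ending nucleotide) averaged 133 ± 18.3 FPKM in L-OHP+FUC and 182 ± 56.5 FPKM in L-OHP libraries (SD, n = 3 each), Cmpk2, a nucleotide kinase beside it, 85.2 ± 2.60 FPKM in L-OHP+FUC and 109.8 ± 40.4 FPKM in L-OHP libraries, and Rtp4, a chaperone of membrane receptors, 26.7 ± 1.85 FPKM in L-OHP+FUC and 41.6 ± 13.5 FPKM in L-OHP libraries, at adjusted p = 0.247, 0.401 and 0.0855. Of these, only Rtp4 had groups that did not overlap. Without L-OHP 3, Rsad2 passed at a log2 fold change of -0.66 (adjusted p = 0.0408) and Rtp4 at -0.76 (adjusted p = 0.0423). The adjusted p went over 0.05 without L-OHP+FUC 1 for Mx1, Mx2, Bst2 and Ifitm3 (0.0681 to 0.0911), without L-OHP+FUC 2 for Mx1, Mx2, Bst2 and Ifitm3 (0.0765 to 0.117), without L-OHP+FUC 3 for Bst2 and Ifitm3 (0.0709 to 0.0756), without L-OHP 1 for Mx1, Mx2, Bst2 and Ifitm3 (0.0676 to 0.104) and without L-OHP 2 for Ifitm3 (0.0536).

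The ADP-ribosylation genes had 4 members that fell, 0 that rose and 2 that did not pass out of 6, at a median log2 fold change of -0.74. Parp11, a mono-ADP-ribosyltransferase, had 3.49, 3.44 and 3.66 FPKM with L-OHP+FUC and 9.65, 8.70 and 6.92 FPKM with L-OHP (log2 fold change -1.05 with an SE of 0.12, adjusted p = 0.00482). Its L-OHP+FUC libraries were nearly level and far below the L-OHP libraries, and it had the smallest adjusted p of the 44. Parp14, a macrodomain protein of the same enzyme family, had 58.8, 59.2 and 84.1 FPKM with L-OHP+FUC and 164, 155 and 114 FPKM with L-OHP (log2 fold change -1.09 with an SE of 0.19, adjusted p = 0.0119). Dtx3l, a ubiquitin ligase that works in a pair with Parp9, had 22.0, 20.6 and 26.0 FPKM with L-OHP+FUC and 40.9, 49.6 and 32.9 FPKM with L-OHP (log2 fold change -0.81 with an SE of 0.16, adjusted p = 0.0161). Parp9 had 20.1, 20.1 and 24.6 FPKM with L-OHP+FUC and 39.8, 38.0 and 27.8 FPKM with L-OHP (log2 fold change -0.67 with an SE of 0.16, adjusted p = 0.0237). Parp14, Dtx3l and Parp9 lie within chr16:35832874-35972605, and in none of them did the groups overlap. Parp9 and Dtx3l overlap on opposite strands, and the use of strand in counting is not given, so their reads cannot be told apart there. Parp12, a zinc-finger member, averaged 48.5 ± 2.74 FPKM in L-OHP+FUC and 61.7 ± 8.80 FPKM in L-OHP libraries (SD, n = 3 each; adjusted p = 0.0873), and Parp10, another mono-ADP-ribosyltransferase, averaged 30.7 ± 2.62 FPKM in L-OHP+FUC and 28.9 ± 7.33 FPKM in L-OHP libraries (adjusted p = 0.676). Parp10 overlaps Plec on the same strand. Without L-OHP 3, Parp12 passed at a log2 fold change of -0.46 (adjusted p = 0.0289). Among these, the adjusted p exceeded 0.05 without L-OHP+FUC 1 for Parp9 and Dtx3l (0.0603 to 0.0838), without L-OHP+FUC 2 for Parp9 and Dtx3l (0.0635 to 0.0852) and without L-OHP 1 for Parp9 and Dtx3l (0.0533 to 0.0757). Parp11 and Parp14 passed whichever library was left out, at an adjusted p of up to 0.0276 and 0.0494. With the GC and length correction and the block, Parp14 did not pass (adjusted p = 0.0749).

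Of the 7 nuclear and adaptor proteins, 5 fell, 0 rose and 2 did not pass, at a median log2 fold change of -0.73. Sp110, a chromatin reader of nuclear bodies, had 16.9, 13.3 and 16.5 FPKM with L-OHP+FUC and 36.5, 31.4 and 25.9 FPKM with L-OHP (log2 fold change -0.95 with an SE of 0.15, adjusted p = 0.00898). Sp100, a founding component of those bodies and a neighbour of Sp110 (chr1:85576899-85709998), had 22.3, 20.1 and 25.4 FPKM with L-OHP+FUC and 42.4, 35.9 and 35.8 FPKM with L-OHP (log2 fold change -0.73 with an SE of 0.12, adjusted p = 0.00950). In both genes the groups did not overlap. Sp110 shares 51.4% of its words with Gm16026, so its reads may be split. Phf11d, a PHD-finger protein, had 19.8, 16.5 and 21.8 FPKM with L-OHP+FUC and 45.6, 44.1 and 29.3 FPKM with L-OHP (log2 fold change -0.98 with an SE of 0.19, adjusted p = 0.0142), and its neighbour Phf11b averaged 63.6 ± 8.65 FPKM in L-OHP+FUC and 109 ± 27.6 FPKM in L-OHP libraries (SD, n = 3 each; adjusted p = 0.0396); 47.0% of the words of Phf11b occur in other genes. Nmi, which binds Stat proteins and pairs with Ifi35, had 11.2, 11.3 and 11.6 FPKM with L-OHP+FUC and 19.6, 22.0 and 14.6 FPKM with L-OHP (log2 fold change -0.66 with an SE of 0.15, adjusted p = 0.0207). Its L-OHP+FUC libraries were within 1.04-fold of each other. Its partner Ifi35 averaged 57.7 ± 6.69 FPKM in L-OHP+FUC and 59.5 ± 13.4 FPKM in L-OHP libraries (adjusted p = 0.935), with overlapping groups. Helz2, a helicase co-activator, averaged 16.6 ± 0.540 FPKM in L-OHP+FUC and 23.7 ± 4.99 FPKM in L-OHP libraries (adjusted p = 0.0639) without overlap, and passed without L-OHP 3 at a log2 fold change of -0.64 (adjusted p = 0.0167). With single libraries left out, the adjusted p exceeded 0.05 without L-OHP+FUC 1 for Phf11b, Phf11d and Nmi (0.0502 to 0.10), without L-OHP+FUC 2 for Phf11b, Phf11d and Nmi (0.0559 to 0.125), without L-OHP+FUC 3 for Phf11b (0.0603), without L-OHP 1 for Phf11b and Nmi (0.0699 to 0.115) and without L-OHP 2 for Phf11b (0.0764). Sp100 and Sp110 passed whichever library was left out.

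The other 6 members held both extremes of the set. Of these, 4 fell, 1 rose and 1 did not pass, at a median log2 fold change of -0.77. Ifi27, a small membrane protein of mitochondria and the nuclear envelope, had 41.8, 44.9 and 38.8 FPKM with L-OHP+FUC and 24.5, 25.1 and 27.1 FPKM with L-OHP (log2 fold change 0.69 with an SE of 0.09, adjusted p = 0.00630). It was the only member past the threshold and higher, and every L-OHP+FUC library was above every L-OHP library. Ifi44 had 7.08, 5.38 and 12.1 FPKM with L-OHP+FUC and 28.0, 22.6 and 19.1 FPKM with L-OHP (log2 fold change -1.45 with an SE of 0.27, adjusted p = 0.0132), the lowest log2 fold change of the 44. Samd9l, which restricts poxviruses and slows translation, had 15.7, 26.6 and 40.7 FPKM with L-OHP+FUC and 80.1, 65.0 and 69.4 FPKM with L-OHP (log2 fold change -1.43 with an SE of 0.31, adjusted p = 0.0188). Its L-OHP+FUC libraries spread 2.59-fold, the widest of the members, yet all lay below the L-OHP libraries. Xaf1, a binder of the apoptosis inhibitor XIAP, had 9.91, 9.85 and 12.3 FPKM with L-OHP+FUC and 26.6, 23.1 and 18.2 FPKM with L-OHP (log2 fold change -1.01 with an SE of 0.16, adjusted p = 0.00883). Epsti1 averaged 53.7 ± 5.10 FPKM in L-OHP+FUC and 78.2 ± 8.13 FPKM in L-OHP libraries (SD, n = 3 each; adjusted p = 0.0193), also without overlap. Lgals3bp, a secreted glycoprotein that binds galectins and the member with the next highest mean level after Ifitm3, had 542, 451 and 505 FPKM with L-OHP+FUC and 611, 577 and 486 FPKM with L-OHP (log2 fold change -0.16 with an SE of 0.13, adjusted p = 0.401), with overlapping groups. An adjusted p over 0.05 was reached without L-OHP+FUC 1 for Ifi44 and Epsti1 (0.0515 to 0.0701), without L-OHP+FUC 2 for Epsti1 and Samd9l (0.0619 to 0.0787) and without L-OHP 1 for Epsti1 and Samd9l (0.0628 to 0.0675). Xaf1 and Ifi27 passed whichever library was left out.

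The libraries of a group did not agree equally on these genes. Averaged over the 44 members, the deviation from each gene's mean on the log2 scale was -0.29, -0.43 and -0.18 in L-OHP+FUC libraries 1 to 3, against 0.45, 0.47 and -0.03 in L-OHP libraries 1 to 3. L-OHP 3 was the lowest of its group in 40 of the 44 members (90.9%), as in 32.0% of all tested genes; the exceptions were Oasl2, Ifitm2, Samd9l and Ifi27. The log2 range was wider among L-OHP than among L-OHP+FUC libraries in 35 of 44 (79.5%), as in 58.8% of all tested genes. The 24 members that fell averaged -0.55, -0.63 and -0.24 in L-OHP+FUC libraries and 0.65, 0.62 and 0.16 in L-OHP libraries, and in each of the 24 L-OHP 3 was above every L-OHP+FUC library. The 19 that did not pass averaged 0.01, -0.22 and -0.12 in L-OHP+FUC libraries and 0.25, 0.33 and -0.25 in L-OHP libraries. In 15 of these 19, L-OHP 3 was below the highest L-OHP+FUC library. The test that split the members used these same libraries, so this contrast in part restates the split. Its share over all tested genes was not computed. With L-OHP 3 left out, 32 members were lower, the 24 and Oasl1, Isg20, Isg15, Uba7, Rsad2, Rtp4, Parp12 and Helz2, while 13.0% of all tested genes were.

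**Figure D3:**
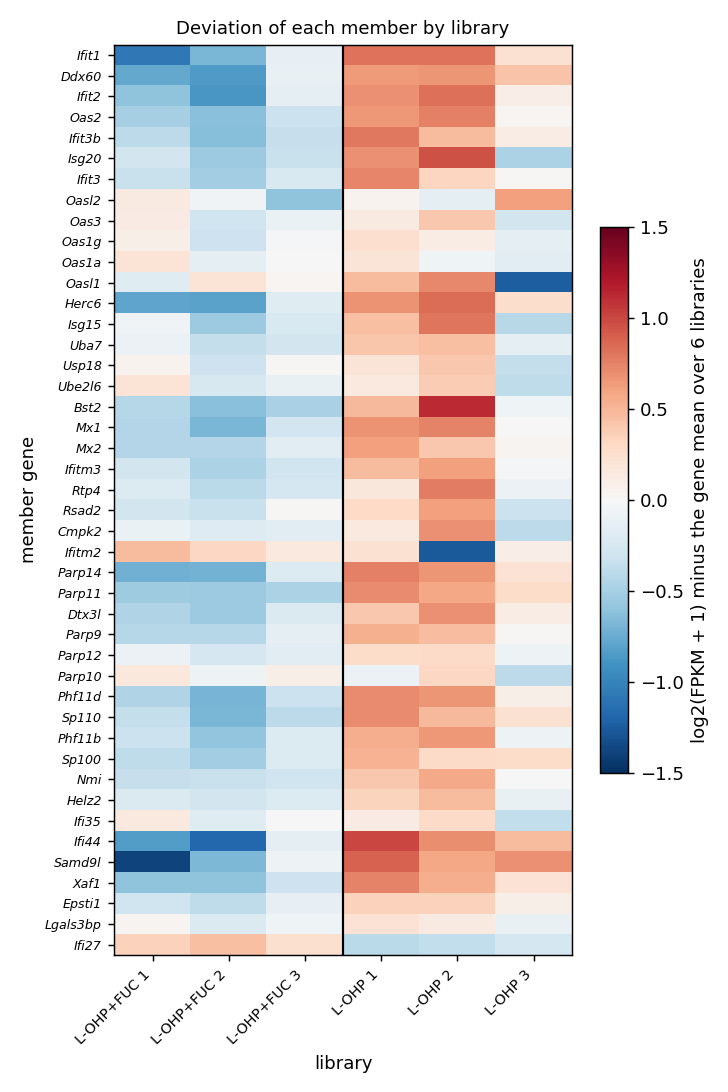
Deviation of each member (rows, grouped by role) from its mean over the 6 libraries on the log2(FPKM + 1) scale, with L-OHP+FUC libraries left of the line and L-OHP libraries right of it. L-OHP 1 and 2 are mostly red, L-OHP+FUC libraries mostly blue, and L-OHP 3 is the lowest of its group in 40 of 44 members.

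The trend with GC content also differed between the groups. Pearson's r across tested genes between GC content and the deviation of a library was 0.411, 0.281 and 0.00487 in L-OHP+FUC libraries 1 to 3 and -0.296, -0.0048 and -0.385 in L-OHP libraries 1 to 3, given as a description since genes are not independent. The median GC content of the transcripts was 46.1% for the 24 members that fell and 52.8% for the 19 that did not pass. With a correction for GC content and length, 21 members were lower, 20 of them among the 24; Ifit2, Ifitm3, Phf11b and Nmi did not pass at adjusted p = 0.0563, 0.0639, 0.126 and 0.0725, and Uba7 passed at 0.0458. Of all tested genes, 11.9% were lower with that correction. With the replicate block added to it, 5 members (11.4%) were lower, beside 6.62% of all tested genes. The part of library composition in the rest of the difference was not tested. Rescaling by median ratios moved the median of all tested genes to -0.01 and their split to 1680 lower and 1581 higher, against 2335 and 927; among the members it gave 20 lower and 1 higher, at a median of -0.56, and Ifit3, Bst2, Ifitm3 and Phf11b missed the threshold at 0.0589, 0.0515, 0.0636 and 0.0665. Quantile normalization gave 1359 lower and 1565 higher genes, and 25 lower members. Parp11, Sp100, Sp110, Xaf1 and Ifi27 passed, in the direction given above, under all 16 alternatives tried.

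**Figure D4:**
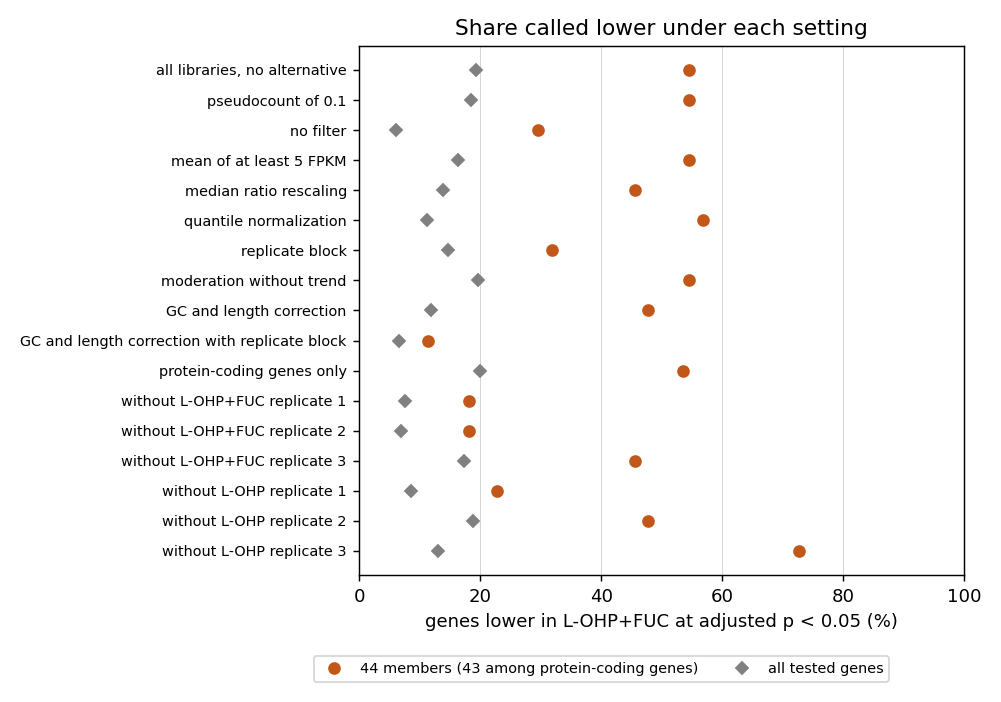
Share of the 44 members (circles) and of all tested genes (diamonds) called lower in L-OHP+FUC at an adjusted p under 0.05, for all libraries and under each of the 16 alternatives. The share of members is lowest with the GC and length correction and replicate block, at 11.4% beside 6.62% of all tested genes. It is highest without L-OHP 3, at 72.7% beside 13.0%.

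Upstream of these genes, a list of 46 genes of interferon production, reception and signalling was read in the same fit. Of these, 34 were tested, of which 5 (14.7%) were lower and 3 (8.82%) were higher, beside 19.3% and 7.67% of all tested genes, at a median log2 fold change of -0.18. The 12 that were not tested include every interferon gene of the list. Ifnb1, which encodes interferon beta, had 0.0723, 0.290 and 0.365 FPKM with L-OHP+FUC and 0.617, 0.143 and 0.243 FPKM with L-OHP, with overlapping groups. At levels this low, the overlap cannot show whether Ifnb1 differed between the groups. Ifng, Ifne, Ifna5, Ifnl2 and Ifnl3 were listed at 0 in every library. The receptor chain Ifnar1 had 15.0, 14.0 and 17.1 FPKM with L-OHP+FUC and 17.9, 17.3 and 19.8 FPKM with L-OHP (log2 fold change -0.25 with an SE of 0.10, adjusted p = 0.114), and Ifnar2 had 30.2, 33.0 and 31.0 FPKM with L-OHP+FUC and 31.6, 30.3 and 35.7 FPKM with L-OHP (log2 fold change -0.05 with an SE of 0.09, adjusted p = 0.738). The groups of Ifnar1 did not overlap, those of Ifnar2 did, and neither chain passed. Ifngr2, a chain of the receptor for interferon gamma, was lower at 38.5 ± 1.52 FPKM in L-OHP+FUC and 46.2 ± 0.819 FPKM in L-OHP libraries (SD, n = 3 each; adjusted p = 0.0465), but did not pass with any library left out (0.0583 to 0.170).

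Stat2, a part of the ISRE-binding complex, had 25.0, 22.7 and 25.1 FPKM with L-OHP+FUC and 57.0, 73.2 and 40.6 FPKM with L-OHP (log2 fold change -1.16 with an SE of 0.20, adjusted p = 0.0111). Its L-OHP+FUC libraries were nearly level and its groups did not overlap. Irf9 had 13.7, 14.4 and 11.9 FPKM with L-OHP+FUC and 14.7, 18.2 and 10.8 FPKM with L-OHP (log2 fold change -0.09 with an SE of 0.18, adjusted p = 0.724), with overlapping groups. Irf7, which drives the later wave of interferon genes, had 70.0, 52.6 and 59.5 FPKM with L-OHP+FUC and 96.1, 116 and 61.4 FPKM with L-OHP (log2 fold change -0.54 with an SE of 0.23, adjusted p = 0.129), and passed without L-OHP 3 at -0.80 (adjusted p = 0.0265). Whether Stat2 differs from Irf9 was not tested.

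Of the feedback and sensing genes, 3 were lower and 3 were higher, and the others did not pass. Socs3, an inhibitor of cytokine receptor signalling best known for the receptors of the interleukin 6 family, had 6.09, 4.39 and 5.07 FPKM with L-OHP+FUC and 1.45, 2.18 and 1.38 FPKM with L-OHP (log2 fold change 1.21 with an SE of 0.16, adjusted p = 0.00575). All its L-OHP+FUC libraries were above all L-OHP libraries. Ifih1, the sensor of long double-stranded RNA called MDA5, had 8.86, 10.3 and 15.3 FPKM with L-OHP+FUC and 27.2, 31.9 and 19.3 FPKM with L-OHP (log2 fold change -1.12 with an SE of 0.24, adjusted p = 0.0185). Tbk1, the kinase that activates Irf3, had 14.8, 15.2 and 21.5 FPKM with L-OHP+FUC and 28.8, 30.0 and 25.5 FPKM with L-OHP (log2 fold change -0.69 with an SE of 0.15, adjusted p = 0.0203). Pias1, an inhibitor of cytokine signalling in the nucleus, had 4.75, 4.81 and 6.29 FPKM with L-OHP+FUC and 7.60, 6.78 and 7.98 FPKM with L-OHP (log2 fold change -0.43 with an SE of 0.12, adjusted p = 0.0413). These 3 were lower in every L-OHP+FUC library than in any L-OHP library. After correction for GC content and length, Pias1 was at a log2 fold change of -0.11 (adjusted p = 0.329), and it missed the threshold with median ratios (0.0763) and quantile normalization (0.0959) too. Ticam1, the adaptor of Toll-like receptor 3 called TRIF, had 19.6, 18.8 and 17.9 FPKM with L-OHP+FUC and 13.5, 14.7 and 11.6 FPKM with L-OHP (log2 fold change 0.48 with an SE of 0.10, adjusted p = 0.0197), and Ptpn1, a phosphatase of Jak2 and Tyk2, was higher at 65.2 ± 3.38 FPKM in L-OHP+FUC and 49.7 ± 6.44 FPKM in L-OHP libraries (SD, n = 3 each; adjusted p = 0.0420). Both had no overlap between groups. Of the genes past the threshold, the adjusted p was over 0.05 without L-OHP+FUC 1 for Ptpn1, Pias1, Tbk1, Ifih1 and Ticam1 (0.0640 to 0.130), without L-OHP+FUC 2 for Ptpn1, Pias1, Tbk1, Ifih1 and Ticam1 (0.0670 to 0.135), without L-OHP+FUC 3 for Ptpn1 (0.0642), without L-OHP 1 for Ptpn1, Pias1, Tbk1, Ifih1 and Ticam1 (0.0590 to 0.125) and without L-OHP 3 for Ptpn1 and Pias1 (0.102 to 0.105). Stat2 and Socs3 passed whichever library was left out.

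**Figure D5:**
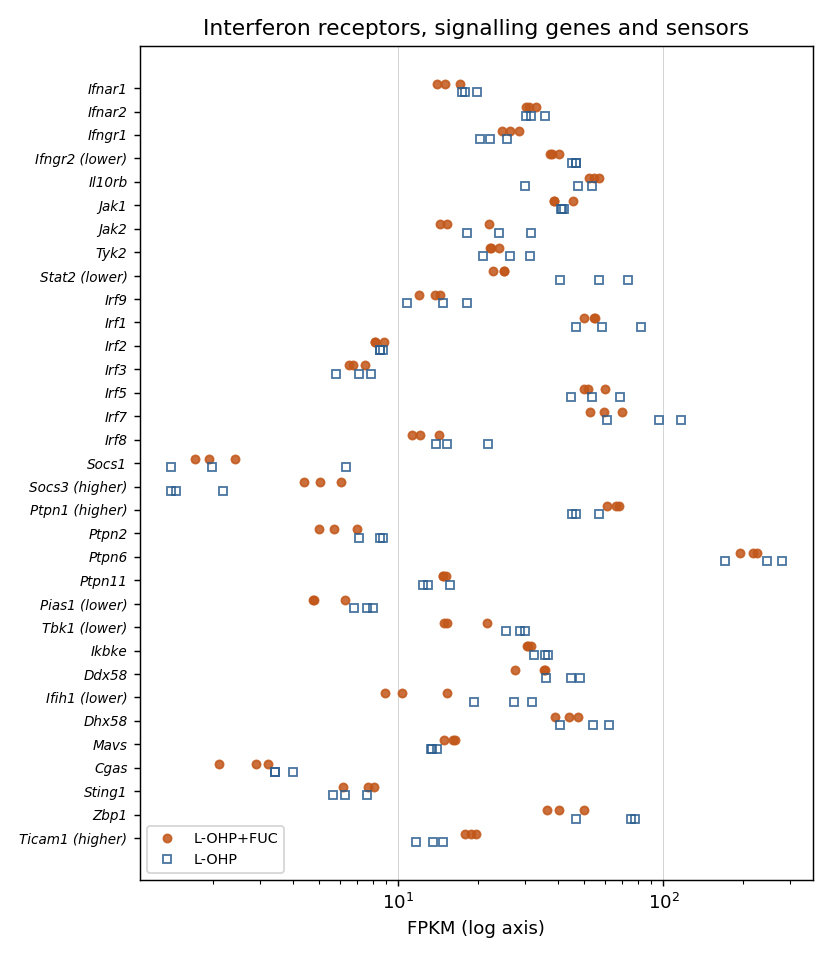
FPKM (log axis) of 33 of the 34 tested genes of interferon reception, signalling and sensing in the 3 L-OHP+FUC libraries (filled circles) and the 3 L-OHP libraries (open squares), with those past the threshold marked lower or higher. Stat2 and Ifih1 lie lower and Socs3 higher in L-OHP+FUC without overlap, and Irf7 and Irf9 overlap.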

How the data were processed

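Total RNA of 6 mouse macrophage samples was depleted of ribosomal RNA and sequenced after random priming, per the labels' protocols. The submitters' processing notes name HISAT2, StringTie, DESeq2, limma, bcl2fastq 2.0 and the build mm10, without their roles; annotation, strand use and read counting are not given in the sources used. The authors deposited 1 table of 55401 genes. Its FPKM values were made by the authors, per the file headers; 0.0001 stood for 0 and was set back. The authors also deposited a fold (a ratio of mean FPKM), its log2, p-values and q-values; the tool behind them is not stated. Samples were grouped by the treatment in the labels.

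From the steps of low FPKM values, library depth was put at 15.7 to 18.6 M fragments. Since 34.3% to 40.0% of low values came out whole within 0.03 reads, no counts were recovered and no count test was run. The log2(FPKM + 1) values were fitted with limma 3.58.1 in R 4.3.3, using an intensity trend, two-sided p-values and a threshold of 0.05, and Benjamini-Hochberg adjustment ran over the 12084 genes that reached 0.5 FPKM in 3 or more of the 6 libraries. This scale understates changes of low genes. The code was tested on simulated data. Of the tested genes, at most 13 had the same value in any pair of libraries.

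The members and the lists were chosen with earlier results of these data known. Values per sample were given for up to 4 members of each role with the smallest p, the 4 with the widest L-OHP ratio, the 3 with the highest mean, and, of the pathway list, up to 6 past the threshold with the smallest p beside 7 signalling genes, 1 of which is not reported here; all other members were named with group levels. Where a symbol was on several rows, the row with the higher mean was used. GENCODE M21 on GRCm38, which is mm10, gave coordinates, GC content and lengths and matched 99.5% of gene IDs, and RefSeq on GRCm38.p6 gave the promoters. Shared sequence was counted in 50-base words of the longest transcript. Alternatives changed the pseudocount to 0.1, dropped the filter or asked for a mean of 5 FPKM, rescaled by median ratios or by quantiles, added the replicate number as a block, dropped the trend, corrected for GC content and length by loess (alone or together with the block), kept only protein-coding genes, or left out each library in turn.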

Additional observations from a re-analysis of the deposited data

How the results depend on the processing

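The 24 lower members numbered 13 without a filter, 14 with the replicate block and 5 with the GC and length correction and the block, and 8 to 32 with 1 library left out; the 1 higher member was higher throughout. Over all tested genes, 2335 lower of 12084 (19.3%) became 1520 of 24828 (6.12%) without a filter. With a mean of at least 5 FPKM, 966 of 5917 (16.3%) were lower. Among the 12084 genes, 1359 were lower with quantile normalization, 1437 with the GC and length correction and 800 with that correction and the block. With 1 library left out, 835 to 2256 were lower. The 927 higher of 12084 became 561 of 24828 without a filter. Among the 12084 genes, 1581 were higher with median ratios, 1565 with quantile normalization and 554 with the block. With 1 library left out, 266 to 1121 were higher. Of the pathway list, 5 lower became 2 without a filter, 3 with median ratios, 2 with the block, 3 with the correction, 1 with correction and block, and 1 to 6 with 1 library left out; 3 higher became 1 with correction and block and 1 to 3 with 1 library left out. The causes were not tested. The median of all tested genes, -0.10, was -0.01 with median ratios, 0.03 with quantile normalization and 0.01 with the correction, while that of the members was -0.56, -0.64 and -0.55.

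Among the members and the signalling genes described by their values, signs turned only for some with a log2 fold change between -0.16 and 0.11. Oas1g (-0.15) and Lgals3bp (-0.16) kept their sign throughout. With median ratios, signs turned for Ube2l6 (0.03), Ifi35 (0.10), Ifnar2 (0.08) and Irf9 (0.02). With quantile normalization, the sign turned for Oas1a (-0.07). With the correction, with and without the block, signs turned for Oasl1 (-0.10) and Parp10 (-0.04). With 1 library left out, the log2 fold change ran from -0.06 to 0.14 for Oas1a, -0.58 to 0.40 for Oasl1, -0.06 to 0.29 for Parp10, -0.21 to 0.11 for Ifi35, -0.31 to 0.07 for Ube2l6, -0.38 to 0.00 for Usp18, -0.09 to 0.02 for Ifnar2 and -0.28 to 0.07 for Irf9. Same-numbered libraries of the groups did not deviate together (r = -0.0365, -0.0711 and 0.0827). L-OHP+FUC 1 correlated best with L-OHP 2 (r = 0.161). With so few libraries per group, these r values cannot show whether the replicate numbers pair the samples. The lower counts of members with the block therefore stand beside the main count. The wider range among L-OHP libraries was not recomputed with a library left out. Read counts were not recovered, so depth limits are unknown for single genes.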
